A study of Mus musculus with 18 samples.

Results

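Complement C1q and the lysosomal proteases that microglia and macrophages carry were followed across cultured mouse motoneurons and their isolated axons. The 10 members were chosen by name: the C1q chains C1qa, C1qb and C1qc, the complement component C3, the cathepsins Ctss, Ctsb, Ctsc, Ctsd and Ctsz, and the lysozyme gene Lyz2. The choice was made with earlier results of these data known. They are 10 of the genes on an expression array on which 18191 genes were tested. Of the 10, 9 were measured through 19 probe sets that name 1 gene each. C3 is not analysed here, since none of the probe sets used names it alone. Where a gene had several probe sets, the one with the highest mean over the 18 arrays leads.

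The cells came from spinal cords of mouse embryos at stage E12.5, enriched for motoneurons by panning on the p75 receptor, so other cells of the cord can remain in the culture. They were grown for 7 days in a chamber whose microchannels let axons, but not cell bodies, reach a second compartment. The axonal side alone received BDNF (20 ng/ml), and CNTF (5 ng/ml) was given to both. Cultures carried a lentivirus with a short hairpin RNA against Smn (knockdown), carried the lentivirus without it (empty vector), or had no virus (wild-type). The labels give no other allele or agent. The knockdown group differs from the empty vector group by the hairpin and from the wild-type group by virus and hairpin together. The titles also number the knockdown arrays in a series of their own (Nr), whereas wild-type and empty vector arrays share another (Gr). What the series stand for is not stated, so the knockdown and the title series cannot be told apart. RNA of the somatodendritic side (cell bodies and dendrites) and of the axonal side was amplified over 2 rounds and hybridised, giving 6 groups of 3 arrays. No label says that the 3 arrays of a group are separate cultures. The p-values measure the spread between these arrays, which may be technical.

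C1q is a complex of A, B and C chains that starts the classical complement pathway when it binds antibody or a cell surface, and C3 is the component at which all complement pathways meet. In the nervous system microglia are the main source of C1q, which tags synapses and debris for uptake. Cathepsins are proteases of the lysosome: cathepsin B, S, C and Z are cysteine proteases and cathepsin D is an aspartic protease. Ctss and Lyz2 are mainly made by microglia, macrophages and related cells, whereas Ctsb, Ctsc, Ctsd and Ctsz are read as broadly expressed.

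The sequences before the gene starts are shown because the members moved together. No link between a motif and a gene's difference was tested. RefSeq's promoter table (GRCm38.p6) held 8 of the 10 members, C1qa and Ctsb not among them. The 250 bases before the start are printed 5′ to 3′ on the gene's strand for C1qb, C1qc, Ctss and Ctsd, each of which holds a match. Capitals mark GAGGAA or its complement TTCCTC (the core that the myeloid factor PU.1 binds), CACGTG (an E-box, the core of the element that TFEB binds at lysosomal genes) and a pair of GAAA repeats separated by 2 bases (an interferon-response element).
C1qb (chr4:136886201-136886450, minus strand): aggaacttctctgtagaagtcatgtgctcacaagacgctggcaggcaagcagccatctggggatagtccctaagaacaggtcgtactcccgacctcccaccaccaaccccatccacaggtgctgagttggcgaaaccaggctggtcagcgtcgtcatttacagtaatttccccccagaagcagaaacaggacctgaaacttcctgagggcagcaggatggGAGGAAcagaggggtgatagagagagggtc
C1qc (chr4:136892915-136893164, minus strand): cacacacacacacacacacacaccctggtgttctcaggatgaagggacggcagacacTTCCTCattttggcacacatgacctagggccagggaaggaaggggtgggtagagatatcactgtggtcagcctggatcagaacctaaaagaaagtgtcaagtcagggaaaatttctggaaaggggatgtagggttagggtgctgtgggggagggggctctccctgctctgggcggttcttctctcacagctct
Ctss (chr3:95526536-95526785, plus strand): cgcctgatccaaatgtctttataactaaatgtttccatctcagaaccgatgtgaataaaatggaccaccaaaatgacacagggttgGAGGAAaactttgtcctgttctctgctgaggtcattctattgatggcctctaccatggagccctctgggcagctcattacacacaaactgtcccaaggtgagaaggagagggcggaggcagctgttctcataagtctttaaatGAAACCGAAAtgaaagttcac
Ctsd (chr7:142387828-142388077, minus strand): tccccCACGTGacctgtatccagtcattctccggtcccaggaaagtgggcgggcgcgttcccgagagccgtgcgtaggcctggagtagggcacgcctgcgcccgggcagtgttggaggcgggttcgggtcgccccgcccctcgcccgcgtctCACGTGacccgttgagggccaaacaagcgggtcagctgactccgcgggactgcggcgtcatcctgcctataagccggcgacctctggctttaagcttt

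GAGGAA stood in 4 of the 8 members, C1qb, C1qc, Ctsc and Ctss, and in 23.25% of 32851 RefSeq windows of the same length, searched on both strands. CACGTG stood only in Ctsd among the 8, with 2 matches that begin 245 and 98 bases before the start, and in 6.021% of all windows. The GAAA pair stood only in Ctss among the 8, beginning 21 bases before the start, and in 2.977% of all windows. C3, Ctsz and Lyz2 held none of these motifs. The motifs were chosen after the values had been seen. A match is a run of letters and not evidence that a factor binds there.

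The somatodendritic arrays of a group correlated at 0.994 to 0.998 over genes, and the axonal arrays at 0.744 to 0.902. A gene was taken as above background in a group when all 3 arrays exceeded the 95th percentile of 157 background probe sets. These name olfactory, vomeronasal and taste receptor, beta-defensin, keratin-associated and seminal vesicle genes, taken as silent in these cultures. The level lay between 5.93 and 6.24 on the somatodendritic and between 6.33 and 7.39 on the axonal arrays (log2). The neuronal genes Snap25, Nefl and Tubb3 were above background in the somatodendritic groups, whereas the motoneuron genes Chat, Slc18a3, Slc5a7, Mnx1 and Lhx3 were not. These dim genes give no check of the motoneuron label. These dim genes do not stand for the full list of 16 motoneuron and neuron markers, which also holds Isl1, Isl2, Prph and Ngfr. Most of the 16 were above background in each somatodendritic group. Of the 16, 10 were above background in somatodendritic wild-type, 9 in empty vector and 9 in knockdown. The targeted gene Smn1 was above background on 1 of the 18 arrays. Its knockdown minus empty vector difference was -0.14 in the somatodendritic (adjusted p = 0.412, limma) and -0.66 in the axonal arrays (adjusted p = 0.486), so Smn1 does not check the knockdown label.

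In cell bodies and dendrites, the C1q chains and the lysosomal proteases were higher in Smn knockdown than in either control, and lower in the empty vector cultures than in untreated ones. Against empty vector, 9 of 9 measured members rose, with log2 differences from 0.67 for C1qa to 3.19 for Ctss and a median of 2.19. The median over all genes was -0.02. For the C1q chains and Ctsz the empty vector arrays were not all above background, so their differences from it are limited by the background. Against wild-type, 8 of 9 rose, with a median of 0.75. Empty vector against wild-type, 7 of 9 fell, with a median of -1.25. In each of the 9 genes the mean was highest in knockdown, then wild-type, then empty vector.

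The shares of all genes called set the scale for these counts. Since the members were chosen with earlier results of these data known, the counts beside these shares are no test of the members as a group. At a Benjamini-Hochberg adjusted p under 0.05, 28% of the 18191 genes were called in knockdown against empty vector, 2267 of them higher and 2821 lower. In knockdown against wild-type 36% were called, 15.6% as higher. In empty vector against wild-type 2% were called, 1.52% as lower. Fewer cells of a type and less RNA per cell cannot be told apart in RNA from whole cultures.

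**Figure D1:**
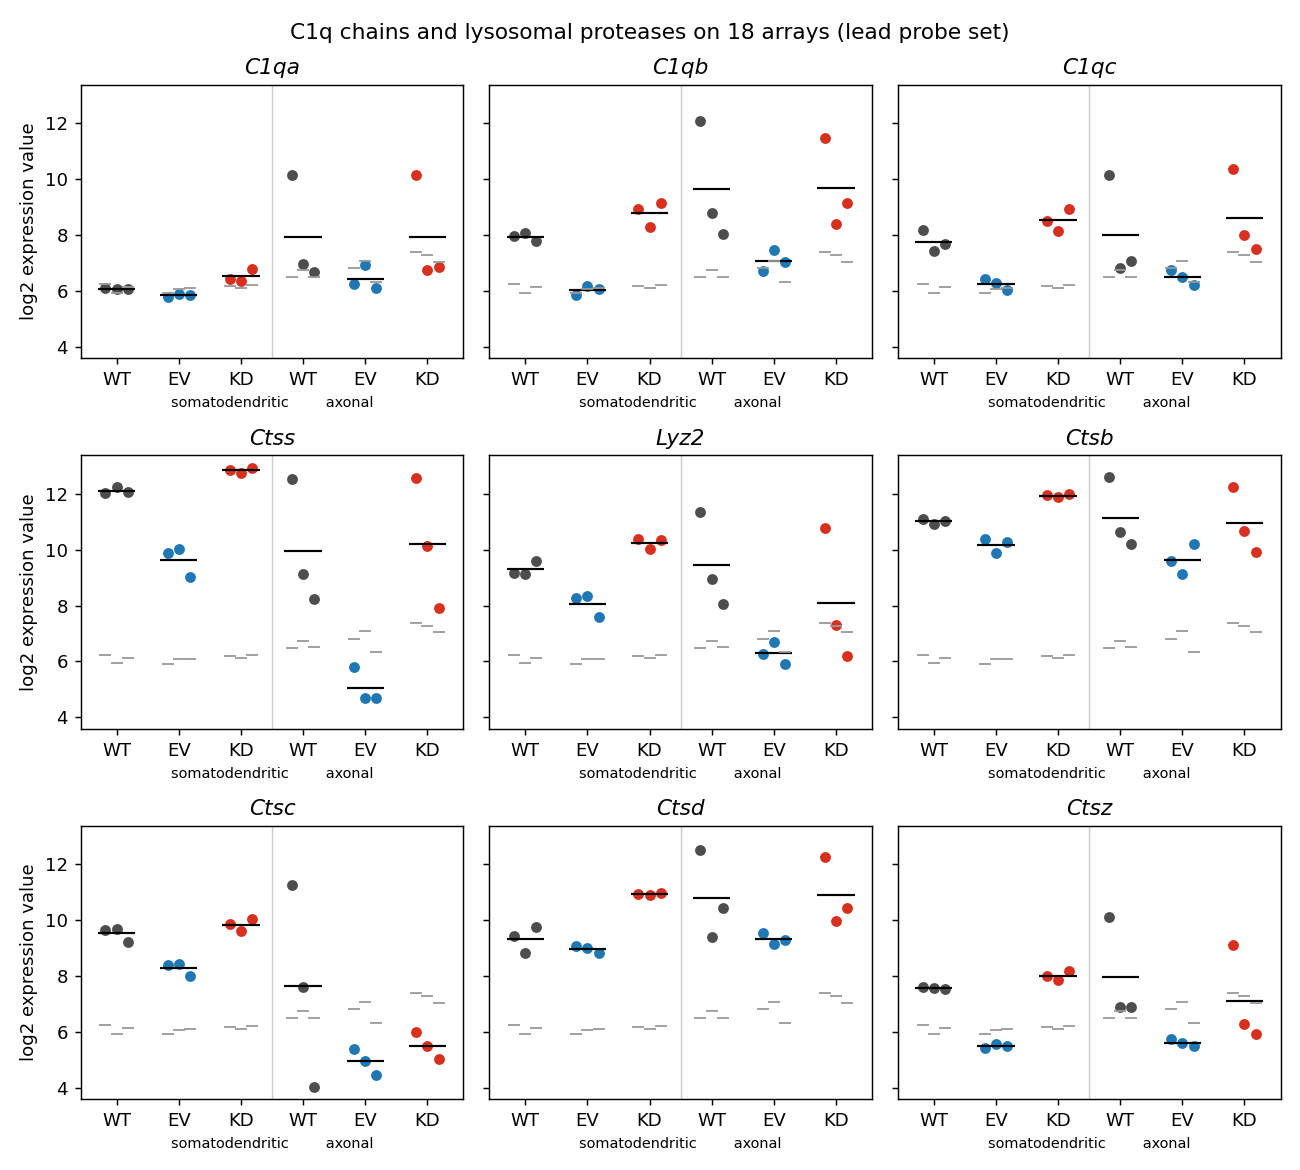
Expression of 9 genes on 18 arrays: each point is 1 array (log2 expression value of the lead probe set), each black line the mean of 3 arrays, each grey dash that array's background level; WT is wild-type, EV empty vector, KD Smn knockdown. In the somatodendritic groups the points stand in tight sets with KD highest, and in the axonal groups 1 array of WT and 1 of KD lie far above the others.

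C1qb encodes the B chain of C1q. Its lead probe set read 7.95, 8.06 and 7.80 in wild-type, 5.85, 6.19 and 6.06 in empty vector, and 8.95, 8.30 and 9.14 in knockdown (log2 expression values, as all levels below). The 3 groups did not overlap, and the empty vector arrays lay at the background level. The knockdown was at least 6.61-fold higher than empty vector, where the fold is a lower bound set by the background (log2 difference 2.77, 95% interval 2.38 to 3.16, adjusted p = 4.04e-07, limma). It was 1.81-fold higher than wild-type (adjusted p = 0.00247).

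C1qc read 8.18, 7.43 and 7.69 in wild-type, 6.44, 6.30 and 6.05 in empty vector, and 8.49, 8.13 and 8.95 in knockdown. The empty vector arrays lay below all others, whereas 1 wild-type array (8.18) lay above the lowest knockdown array (8.13). The knockdown was at least 4.74-fold above empty vector (adjusted p = 9.21e-06). The 1.69-fold difference from wild-type passed the test (adjusted p = 0.0141) but was lost without wild-type array 2 (adjusted p = 0.0619) or knockdown array 6 (adjusted p = 0.0645).

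C1qa, the A chain, read 6.10, 6.07 and 6.06 in wild-type, 5.79, 5.90 and 5.86 in empty vector, and 6.42, 6.37 and 6.77 in knockdown. The groups did not overlap, yet only the knockdown arrays were all above background. The knockdown was at least 1.40-fold above empty vector, a bound set by the background. The measured knockdown minus empty vector difference was 0.67 (95% interval 0.44 to 0.90, adjusted p = 0.000474), and knockdown minus wild-type was 0.44 (adjusted p = 0.0057). Empty vector minus wild-type was -0.23, which missed the threshold (adjusted p = 0.281).

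Ctss, the cysteine protease that trims the class II invariant chain in antigen-presenting cells, read 12.03, 12.23 and 12.08 in wild-type, 9.88, 10.04 and 9.02 in empty vector, and 12.86, 12.74 and 12.93 in knockdown. The groups did not overlap, and all 9 arrays lay far above background. The knockdown was 9.15-fold above empty vector (log2 difference 3.19, 95% interval 2.75 to 3.63, adjusted p = 3.30e-07) and 1.66-fold above wild-type (adjusted p = 0.0137). The empty vector was 5.53-fold below wild-type (adjusted p = 2.04e-05).

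Lyz2 encodes lysozyme M, which cleaves bacterial cell walls, and a near-identical copy, Lyz1, can share its signal. Lyz2 read 9.17, 9.12 and 9.59 in wild-type, 8.27, 8.35 and 7.59 in empty vector, and 10.37, 10.04 and 10.36 in knockdown. The groups did not overlap. The knockdown was 4.56-fold above empty vector (adjusted p = 5.20e-06) and 1.95-fold above wild-type (adjusted p = 0.00173). Empty vector was 2.34-fold below wild-type (adjusted p = 0.00428).

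The proteases read as broadly expressed differed among themselves. Ctsb read 11.10, 10.92 and 11.04 in wild-type, 10.38, 9.88 and 10.27 in empty vector, and 11.95, 11.88 and 11.99 in knockdown, with no overlap. Knockdown was 3.39-fold above empty vector (adjusted p = 6.32e-07) and 1.89-fold above wild-type (adjusted p = 8.48e-05). Ctsc, dipeptidyl peptidase 1, which activates the serine proteases of immune granules, read 9.66, 9.70 and 9.22 in wild-type, 8.38, 8.44 and 8.0 in empty vector, and 9.86, 9.61 and 10.04 in knockdown. The knockdown and wild-type arrays overlapped. Knockdown was 2.96-fold above empty vector (adjusted p = 1.71e-05), and its difference from wild-type was 0.31 (95% interval -0.03 to 0.66, adjusted p = 0.148).

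Ctsz, the carboxypeptidase cathepsin Z, removes residues from the carboxyl end of proteins. It read 7.62, 7.59 and 7.54 in wild-type, 5.44, 5.58 and 5.50 in empty vector, and 7.99, 7.85 and 8.19 in knockdown. The 3 empty vector arrays were all below background. Knockdown was at least 3.94-fold above empty vector (log2 difference 2.5, adjusted p = 3.96e-09) and 1.34-fold above wild-type (adjusted p = 0.00406).

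Ctsd showed the other extreme. It read 9.44, 8.82 and 9.76 in wild-type, 9.09, 9.01 and 8.81 in empty vector, and 10.95, 10.90 and 10.99 in knockdown. The wild-type and empty vector arrays overlapped, and the knockdown arrays lay above both. Empty vector minus wild-type was -0.37 (95% interval -0.77 to 0.02, adjusted p = 0.324), which became -0.63 and passed without wild-type array 2 (adjusted p = 0.0273). Knockdown minus wild-type was 1.61, the largest of the 9 lead probe sets (adjusted p = 3.18e-05), and knockdown was 3.94-fold above empty vector (adjusted p = 8.36e-06).

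The division into myeloid-restricted and broadly expressed genes did not separate the members above background in empty vector from those that were not. The empty vector arrays were above background in 5 members, Ctss, Lyz2, Ctsb, Ctsc and Ctsd, and not in the C1q chains and Ctsz. With the 90th percentile as background this count was 8. In wild-type 8 members were above background and in knockdown all 9. The median knockdown minus empty vector difference was 2.26 for the C1q chains, 2.69 for Ctss and Lyz2, and 1.87 for the broadly expressed genes. The medians of empty vector minus wild-type were -1.51, -1.85 and -1.05. Those of the C1q chains and, through Ctsz, of the broadly expressed genes are limited by the background.

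No overlap between arrays was seen in 9 of 9 members for knockdown against empty vector, where 19.6% of all genes did so with knockdown higher. It was seen in 7 of 9 for knockdown against wild-type (20.9% of genes, knockdown higher) and in 8 of 9 for empty vector against wild-type (10.8% of genes, empty vector lower). A fit of all 18 arrays together, which shares the wide axonal spread, gave the same differences and called none of the 9 in these 3 comparisons.

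**Figure D2:**
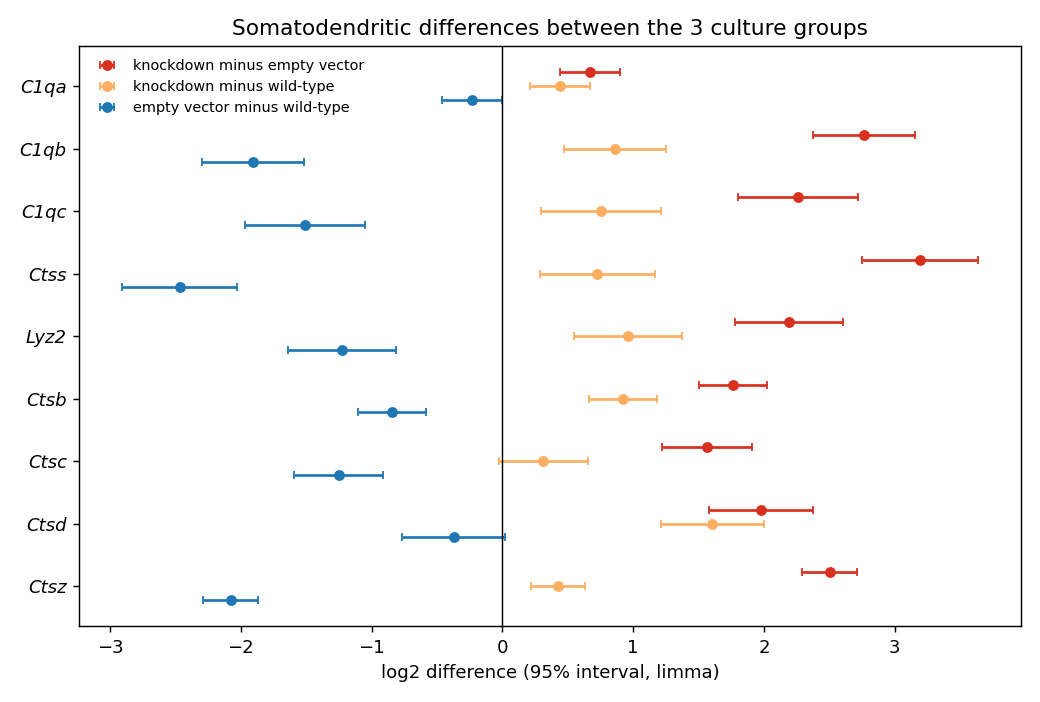
Log2 differences of 9 genes in the somatodendritic groups with 95% intervals (limma, 3 arrays per group). Among these lead probe sets Ctsd has the largest knockdown minus wild-type difference (1.61), and its empty vector minus wild-type interval spans 0.

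Over all 19 probe sets, each fitted among 34934, 17 were called higher in knockdown than in empty vector (11.8% of probe sets), 15 higher than in wild-type (16.1%) and 12 lower in empty vector than in wild-type (1.05%). The probe sets of a gene did not always move alike. For Ctsb, probe set 1417491_at read 8.98, 9.04 and 9.12 in wild-type, 7.84, 7.42 and 7.73 in empty vector, and 8.65, 8.42 and 8.57 in knockdown. It was the only probe set called lower in knockdown than in wild-type, by a log2 difference of -0.50 (adjusted p = 0.00424). Ctsb probe sets 1448732_at and 1417492_at rose in the same comparison by 1.61 and 0.71. The fifth, 1444987_at, was not above background.

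For C1qb the lead and the second probe set both end in _x_at, a class that may bind other transcripts. The second, 1437726_x_at, read 7.86, 7.93 and 7.47 in wild-type, 4.70, 4.46 and 4.27 in empty vector, and 8.99, 8.51 and 9.08 in knockdown. Its knockdown minus empty vector difference was 4.38, from empty vector arrays below background. The third, 1417063_at, was below background in the 3 somatodendritic groups, where its knockdown minus empty vector difference was 0.91. With it in place of the lead, C1qb was no longer called lower in empty vector than in wild-type (-0.42, adjusted p = 0.191). Ctsz probe sets 1417868_a_at and 1417870_x_at gave knockdown minus empty vector differences of 3.18 and 2.21. The other Ctsc probe sets, 1437939_s_at and 1446834_at, were below background.

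**Figure D3:**
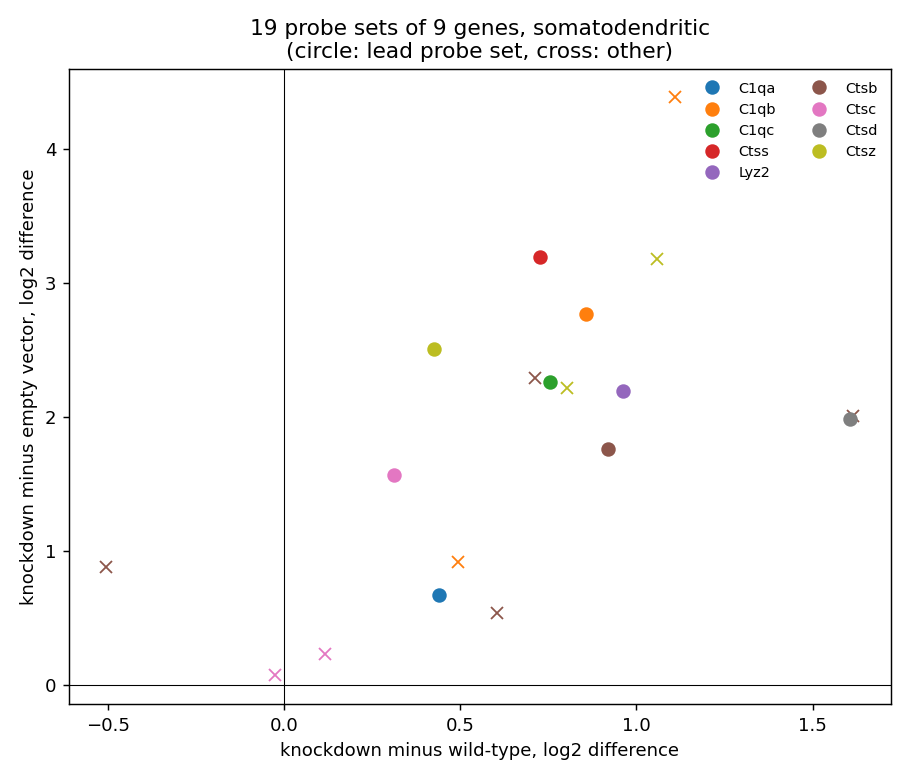
Knockdown minus wild-type (x) against knockdown minus empty vector (y), log2 differences of 19 probe sets of 9 genes in the somatodendritic arrays; circles are lead probe sets and crosses the others. A Ctsb probe set is the one point well to the left of 0 (-0.50), and 2 dim Ctsc probe sets lie near the origin.

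Several other measurements also differed between the somatodendritic groups, not all in the members' order. Of 22 microglia and macrophage markers, 18 rose in knockdown against empty vector, among them Tyrobp (2.91), Laptm5 (3.59), Ptprc (3.30) and Cybb (2.35), and 17 fell in empty vector against wild-type. Their mean lay at 7.52 to 7.70 on the wild-type arrays and at 7.67 to 7.93 on the knockdown arrays, with the empty vector arrays at 5.71 to 6.02. Against wild-type, 9 of the 22 rose and 3 fell in knockdown, with a median of 0.15. Of the 22, 18 were above background in wild-type, 6 in empty vector and 17 in knockdown. P2ry12 and Tmem119, markers of mature microglia, were among the 5 not above background in either empty vector or knockdown.

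Of 18 interferon-induced genes, 18 rose against empty vector and 17 against wild-type in knockdown. The largest by p were Usp18 (6.41 against empty vector), Ifit1 (7.65), Oasl2 (5.96) and Rtp4 (5.21). The median of the 18 was 2.88 in knockdown against wild-type. In empty vector against wild-type 4 of the 18 fell, and 14 were above background in neither group. The 3′ minus 5′ difference of the Gapdh control probe sets, which grows as RNA shortens, was 3.99 to 4.12 in knockdown, above its range of 3.53 to 3.68 in empty vector and of 3.11 to 3.61 in wild-type. Of 9 measured neutrophil markers, 8 were not above background in knockdown or empty vector and none was called. Of 12 astrocyte markers, 8 fell and none rose in knockdown against empty vector (median -0.46), and 6 fell and 1 rose against wild-type (median -0.51). Of 11 measured oligodendrocyte lineage markers, 6 and 7 fell in these comparisons (medians -0.62 and -0.95) and none rose. None of either list was called in empty vector against wild-type. The part of microglia number, other cell types, interferon response or RNA state in the members' differences was not tested.

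The rest of the complement pathway was mostly dim. Of 15 measured genes of initiation, the convertases and the terminal complex, 12 were below background in knockdown and empty vector. C2, a serine protease of the C3 convertase, rose in knockdown by 1.70 against empty vector (adjusted p = 8.79e-08) and by 0.85 against wild-type. Masp1, a protease of the lectin pathway, fell by 0.48. C8a and Hc, both terminal components below background, also passed, at 0.26 and -0.28. Among 10 regulators none rose, and Clu, a secreted chaperone that inhibits the terminal complex, fell by 0.94, as did the membrane inhibitor Cd59a by 0.34.

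Of 11 receptors, 5 rose and 1 fell against empty vector. C3ar1, the receptor for the C3a fragment, rose by 3.95 (adjusted p = 1.58e-09), and was the receptor that rose against wild-type as well (2.30). Itgb2, the shared chain of the complement receptors for C3 fragments, rose by 2.27 against empty vector and stood at 0.20 against wild-type (adjusted p = 0.4002). Its partner chains Itgax and Itgam rose by 0.98 and 0.42, and Itgax fell by 0.55 against wild-type. C5ar1 rose by 0.25. The engulfment receptor Megf10, made by astrocytes, fell by 0.95.

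Of 14 other lysosomal proteases, 5 rose and 1 fell in knockdown against empty vector. Lgmn (legumain, 1.83), Ctsl (1.64), Ctsh (1.94), Ctsa (1.34) and Scpep1 (0.61) rose, and Cpq fell by 0.50. Against wild-type, Lgmn, Ctsl, Ctsa and Ctsh rose by 1.48, 1.13, 0.97 and 0.45. Of 8 measured inhibitors, Cstb, cystatin B, which blocks cysteine cathepsins, rose by 1.13 and Serpinb6a by 0.42 against empty vector.

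Of 39 other lysosomal genes, 19 rose and 3 fell against empty vector, with a median of 0.33 beside -0.02 over all genes and 2.19 over the 9 members. Lipa, the acid lipase, and Grn, the progranulin precursor, rose by 1.59 and 0.95. Sort1, a sorting receptor, fell by 0.94, and Npc2, a cholesterol carrier, rose by 0.86. Against wild-type 16 rose and 7 fell. Empty vector against wild-type, 5 fell and none rose.

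**Figure D4:**
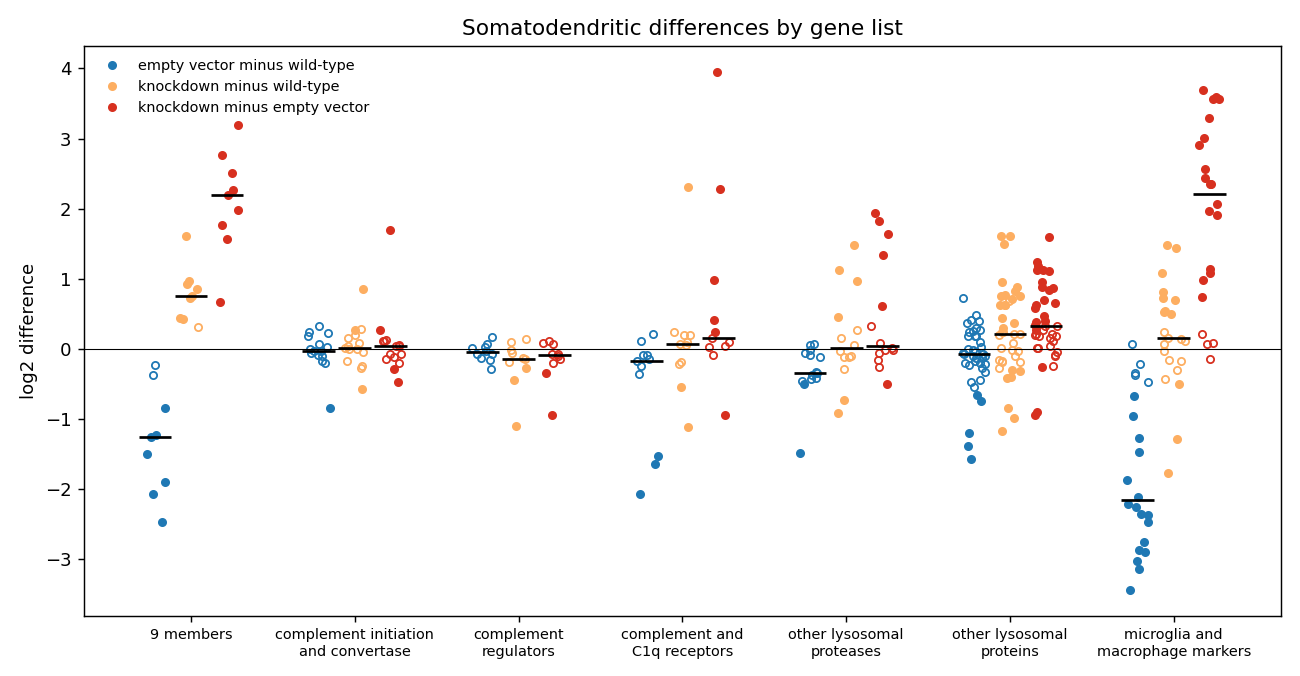
Log2 differences of single genes in the somatodendritic arrays by gene list; filled points have an adjusted p under 0.05 (limma), open points do not, and black lines are medians. The 9 members and the 22 microglia and macrophage markers lie low in empty vector minus wild-type (medians -1.25 and -2.16), while the complement lists centre near 0.

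Among 11141 genes above background in at least 1 somatodendritic group, likeness to the mean of the C1q chains over the 9 arrays was ranked. With the members and clone-like gene names left out, the 10 nearest were Milr1, Ctsh, Fcer1g, Evi2a, Slc11a1, Hpse, Cd52, Cd300c2, C2 and Lpxn. Likeness is the root mean square log2 difference after centring each gene, which ran from 0.11 for Milr1 to 0.21 for Lpxn. Milr1, a receptor of myeloid cells, differed by 2.00 between knockdown and empty vector and by 0.72 between knockdown and wild-type, beside 1.90 and 0.68 for the C1q mean. The C1q chains themselves lay at 0.22 (C1qc), 0.39 (C1qb) and 0.54 (C1qa) from their mean. Of the members outside the C1q chains, Ctsc was nearest (0.23) and Ctss farthest (0.66), with Ctsd at 0.50, nearer than C1qa. Of the 11141 genes, 160 lay nearer than C1qa and 695 nearer than Ctss. No C1q chain was above background on all empty vector arrays, so the background limits the C1q mean and the distances to it. Without the background filter 8 of the 10 names stayed.

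In axons the same genes were uneven between arrays of a group. The first wild-type and the first knockdown array were the highest of their group for 9 of 9 members, by a mean of 3.37 and 2.66 over the group's other arrays. The 22 microglia and macrophage markers averaged 9.17 on that wild-type array against 7.03 and 6.50 on its others, and 8.06 on that knockdown array against 6.50 and 6.26. The 18 interferon-induced genes averaged 8.41 on that knockdown array against 7.39 and 7.32. The 12 fibroblast and meningeal markers averaged 9.09 on that wild-type array against 7.38 and 6.65, and 7.07 on that knockdown array against 6.87 and 7.47. The part of such cells in the members' axonal levels was not tested.

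The axonal C1qb arrays read 12.08, 8.80 and 8.05 in wild-type, 6.73, 7.46 and 7.05 in empty vector, and 11.47, 8.39 and 9.15 in knockdown. Axonal C1qc read 10.15, 6.83 and 7.07 in wild-type, 6.76, 6.50 and 6.21 in empty vector, and 10.35, 8.01 and 7.49 in knockdown. Axonal C1qa read 10.15, 6.98 and 6.68 in wild-type, 6.24, 6.93 and 6.12 in empty vector, and 10.14, 6.74 and 6.87 in knockdown. For C1qb and C1qc the empty vector arrays lay below all others, and for C1qa they overlapped both groups.

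Axonal Ctss read 12.52, 9.12 and 8.24 in wild-type, 5.79, 4.68 and 4.71 in empty vector, and 12.58, 10.15 and 7.92 in knockdown. All 3 empty vector arrays were below background and every other array above it. Axonal Lyz2 read 11.34, 8.94 and 8.05 in wild-type, 6.28, 6.70 and 5.91 in empty vector, and 10.79, 7.32 and 6.21 in knockdown. The knockdown arrays of Lyz2 overlapped the empty vector arrays.

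Axonal Ctsb read 12.59, 10.65 and 10.20 in wild-type, 9.60, 9.12 and 10.20 in empty vector, and 12.23, 10.68 and 9.91 in knockdown. Axonal Ctsd read 12.53, 9.39 and 10.42 in wild-type, 9.56, 9.16 and 9.29 in empty vector, and 12.26, 9.97 and 10.45 in knockdown. These were the members above background in all 3 axonal empty vector arrays. Axonal Ctsz read 10.11, 6.89 and 6.90 in wild-type, 5.75, 5.59 and 5.48 in empty vector, and 9.12, 6.27 and 5.93 in knockdown. Axonal Ctsc spanned 4.03 to 11.25 in wild-type and stayed below background on the 6 empty vector and knockdown arrays. Members above background numbered 8 in wild-type, 2 in empty vector and 5 in knockdown. Over all genes, 8948 to 9816 were above background on a wild-type, 6995 to 10361 on an empty vector and 5680 to 7183 on a knockdown array of axons.

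None of the 9 members passed the test in the axonal comparisons. In knockdown against empty vector, where 0.176% of genes were called (limma), the members' log2 differences were 0.57 for Ctsc to 5.16 for Ctss, with adjusted p from 0.113 to 0.882 and 2 of 9 at an unadjusted p under 0.05, beside 3318 of 18191 genes. The arrays did not overlap in 5 of 9, and 13.3% of all genes did so with knockdown higher. Without the first wild-type and first knockdown arrays, Ctss stood at 3.98 (adjusted p = 0.15) and C1qb at 1.69 (adjusted p = 0.219). C1qb stood at -0.14 when probe sets ending in _s_at or _x_at were left out.

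In empty vector against wild-type axons, 0% of genes were called by limma, and 603 genes, with 3 of the 9 members among them, had an unadjusted p under 0.05. The members' differences ran from -4.90 for Ctss to -1.44 for Ctsd, and in 6 of 9 the arrays did not overlap (4.54% of genes, empty vector lower). Ctsb counts among the 6 only by a margin below the printed digits. Its lowest wild-type and highest empty vector arrays both read 10.2. Without the first wild-type and first knockdown arrays Ctss stood at -3.62 and Lyz2 at -2.20, neither past the threshold. In knockdown against wild-type axons, where 0.099% of genes were called, none of the 9 passed at an unadjusted p under 0.05 (3803 of all genes did), and the sign turned in 18 of 134 alternative values.

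**Figure D5:**
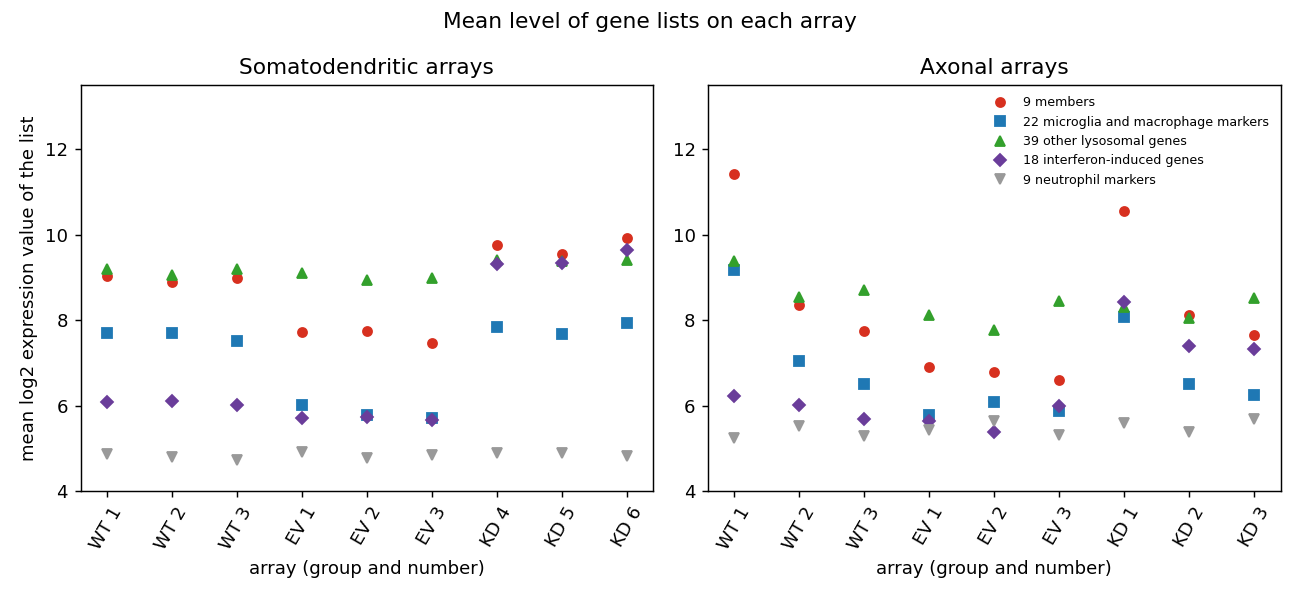
Mean log2 expression value of gene lists on each of 18 arrays (group and array number on the x axis; WT wild-type, EV empty vector, KD Smn knockdown). On the axonal side the members and the microglia and macrophage markers peak on arrays WT 1 (11.4 and 9.17) and KD 1 (10.5 and 8.06).

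Axonal and somatodendritic arrays had been brought to a common distribution separately, so levels set across compartments carry that limit. Axons against cell bodies, 29.1% of genes were called in wild-type and none of the 9 members, with 2 of 9 at an unadjusted p under 0.05 beside 8229 of 18191 genes (limma). In empty vector, where 42% were called and 18.2% as lower, Ctss and Ctsc were lower in axons, by at least 7.50-fold and at least 2.89-fold (adjusted p = 0.00493 and 0.031). In knockdown, where 61.7% were called and 27.7% as lower, Ctss was 6.18-fold and Ctsc at least 6.06-fold lower in axons (adjusted p = 0.038 and 0.00449). Without the first axonal knockdown array, 5 of the 9 and 10392 of 18191 genes were called in knockdown.

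The knockdown effect in axons minus that in cell bodies passed the test in none of the 9 members, with adjusted p from 0.466 to 0.961 and none at an unadjusted p under 0.05, where 6.77% of genes were called (limma). For Ctss it was 1.96 (95% interval -1.14 to 5.07) and for Ctsz -0.999 (95% interval -3.38 to 1.39). Without the first axonal wild-type and knockdown arrays Ctsz passed at -2.01 (adjusted p = 0.000225), but it was then above background in the somatodendritic knockdown group alone of the 4 groups compared, so the value rests on levels not above background in the other groups.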

How the data were processed

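The 18 arrays (Affymetrix mouse genome arrays) were used as the log2 expression values the authors deposited. Their software was not given in the sources used here. Sorted values were almost the same on all arrays of a compartment, which differ from those of the other compartment. Of 45101 probe sets, 34958 name 1 gene in GEO's platform annotation, 932 several and 9211 none. Of those with 1 gene, 34934 (no control, no missing value) gave 18191 genes. No batch is given in the labels.

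Each gene's lead probe set entered a linear model with moderated variances (limma 3.58.1 under R 4.3.3), and p-values were adjusted by Benjamini-Hochberg across the 18191 genes. The 9 arrays of a compartment entered the comparisons within it, and all 18 those across. The script was checked on simulated shifts. A fold against a group below background was taken against the background level. Besides the members, the rule for named genes took up to 4 genes of lowest p per list and every complement or protease gene that passed. Some neuronal and microglial markers were named outside it. The 10 members and the lists were chosen with earlier results of these data known. The 10 comparisons were repeated with other arrays in the fit, filters, probe sets, normalization, spread estimates, a replicate block and each array left out. The promoter motifs and 2 alternatives (the 6 arrays of a comparison alone, and leaving out the 2 axonal arrays with the highest microglia markers) were chosen after seeing the data. Array numbers from the titles did not pair the arrays: of 30 same-numbered pairs 1 correlated above 0.1 (r from -0.19 to 0.23).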

Additional observations from a re-analysis of the deposited data

How the results depend on the processing

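A single fit of all 18 arrays called 0 of the 9 members in each of the 3 somatodendritic comparisons and 2 in axonal knockdown against empty vector, where it called 3763 of 18191 genes. Over all genes it called 103 in somatodendritic knockdown against empty vector, 144 against wild-type and 7 in empty vector against wild-type. With each array left out in turn the members called numbered 9 each time, 7 to 8 and 7 to 8 in these 3 comparisons. Over all genes these fits called 3719 to 4647, 5200 to 6304 and 200 to 1408 of 18191. In the 3 axonal comparisons 0 members were called with each array left out. Over all genes 1 to 190 were called in axonal knockdown against empty vector, 0 to 116 against wild-type and 0 in empty vector against wild-type. Axonal against somatodendritic wild-type, the count of 0 became 1 with probe sets ending in _s_at or _x_at left out (5386 of 17901 genes). It became 1 with all 18 arrays normalized together (1535 of 18191 genes). It became 5 without the first axonal wild-type and knockdown arrays (5405 genes), and 0 to 2 with each array left out (2494 to 4429 genes). In empty vector the 2 calls became 4 with the 6 arrays alone (4784 genes), 1 with the mean of all probe sets (8209 genes) and 1 with common normalization (3094 genes). They became 5 without those 2 arrays (9649 genes), and 1 to 2 with each array left out (4514 to 8143 genes). In knockdown the 2 calls became 1 with the 6 arrays alone (9621 genes) and 1 with common normalization (8509 genes). They became 6 without those 2 arrays (10833 genes), and 1 to 5 with each array left out (9691 to 11138 genes). The difference of the knockdown effects gave 1 call without those 2 arrays (1696 genes). With the replicate block, 6 of the 9 were called in somatodendritic empty vector against wild-type, Lyz2 being lost (adjusted p = 0.0697). Over all genes the block called 164 of 18191 there. It called 3 members in axonal against somatodendritic empty vector (1576 genes) and changed no other member count. The arrays share only a number, which for axonal knockdown comes from a different title series than the controls', and no block could be fitted for somatodendritic knockdown, whose numbers match no control.

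Over the 10 comparisons and all alternatives, 57 of 1302 member values turned sign, none of them of a value called as reported and none in the 3 somatodendritic comparisons. The cause was not tested. With probe sets ending in _s_at or _x_at left out, the sign turned in axonal knockdown against empty vector C1qb (-0.14), in axonal knockdown against wild-type C1qb (-1.54), in axonal against somatodendritic wild-type Ctsz (-0.21), in axonal against somatodendritic knockdown C1qb (-0.42). With the mean of all probe sets, the sign turned in axonal knockdown against wild-type C1qb (-0.96), in axonal against somatodendritic wild-type Ctsb (-0.26), in axonal against somatodendritic knockdown C1qb (-0.015). Without the first axonal wild-type and knockdown arrays, the sign turned in axonal against somatodendritic wild-type C1qc (-0.82), Ctsb (-0.60), Ctsz (-0.69), Lyz2 (-0.80), in axonal against somatodendritic knockdown C1qb (-0.030), C1qc (-0.77), in the axonal minus somatodendritic knockdown effect C1qa (-0.30). With all 18 arrays normalized together, the sign turned in axonal against somatodendritic empty vector Ctsb (0.37), Ctsz (-0.14), in axonal against somatodendritic knockdown Ctsd (0.68), Smn1 (-0.040), in the axonal minus somatodendritic knockdown effect C1qb (0.50), C1qc (0.56), Lyz2 (0.022). With each array left out in turn, the sign turned in axonal knockdown against wild-type for C1qa (-1.13 to 1.09), C1qb (-0.88 to 1.24), C1qc (-0.27 to 1.67), Ctss (-0.93 to 1.53), Ctsb (-0.85 to 0.51), Ctsd (-0.58 to 0.99), Ctsz (-1.86 to 0.22). With each array left out in turn, the sign turned in axonal empty vector against wild-type for Smn1 (-0.19 to 0.68). With each array left out in turn, the sign turned in axonal against somatodendritic wild-type for C1qc (-0.82 to 0.84), Ctsb (-0.60 to 0.60), Ctsz (-0.69 to 0.92), Lyz2 (-0.80 to 0.85). With each array left out in turn, the sign turned in axonal against somatodendritic knockdown for C1qb (-0.030 to 1.51), C1qc (-0.77 to 0.66), Ctsd (-0.74 to 0.41). With each array left out in turn, the sign turned in the axonal minus somatodendritic knockdown effect for C1qa (-0.30 to 1.40), C1qb (-1.08 to 0.46), C1qc (-1.0 to 0.43), Ctsb (-1.11 to 0.054), Ctsd (-1.10 to 0.039), Lyz2 (-1.72 to 0.57). The number of arrays and signal near background limit the precision.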
